A study of Mus musculus with 9 samples.

Results

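Integrins are adhesion receptors made of 1 α and 1 β subunit, and the transcripts of 10 integrin subunits were followed here in the lens of the mouse embryo. They are the β subunits *Itgb1*, *Itgb3*, *Itgb4*, *Itgb5* and *Itgb8* and the α subunits *Itga2*, *Itga3*, *Itga5*, *Itga6* and *Itgav*, chosen by gene symbol, with no threshold on their measured values. They are 10 of the 55416 genes listed in the count tables, and all 10 were among the 14903 genes with enough counts to be tested. RNA from the single pair of lenses of each embryo was sequenced at E16.5, with 4 libraries from *Atf4* null embryos and 5 from wildtype littermates. The null embryos were homozygous for the germline allele Atf4tm1Tow, in which a neomycin cassette takes the place of exons 3 and 4, so every tissue of the embryo lacked the coding sequence. Both genotypes came from intercrosses of heterozygotes on a mixed background of C57Bl/6 and 129 strains, and no agent was given to either. Animals were not typed for the *Bfsp2* deletion that 129 mice carry. The study asked which lens transcripts depend on ATF4, a transcription factor that is made when cells are short of amino acids or under other stress.

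Each α subunit pairs with a β subunit, and the pair decides what the receptor binds outside the cell. The α3 and α6 subunits bind laminins and pair with β1, and α6 also pairs with β4 at hemidesmosomes, the junctions that tie keratin filaments to a basement membrane. The α2 subunit pairs with β1 and binds collagens, and α5 pairs with β1 and binds fibronectin. The αv subunit pairs with β1, β3, β5 or β8, and its receptors bind vitronectin, fibronectin and the latent form of TGFβ. In the lens, epithelial and fiber cells use integrins to hold to the capsule, a thick basement membrane of laminins, type IV collagen, nidogen and perlecan that surrounds the whole organ. Loss of β1 from the lens is known to damage the epithelium.

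*Atf4* was measured first as a check of the genotypes. It ran from 119 to 155 CPM (counts relative to the size of the library, scaled by edgeR's TMM factors) in wildtype and from 0.582 to 10.6 CPM in *Atf4* null libraries (log2 fold change -4.55, SE 0.47, adjusted p = 9.75e-05), so no library went against its label. Gene counts ran from 8409779 to 8906996 per wildtype library and from 7440807 to 8696699 per *Atf4* null library. Of 6 lens epithelial markers, none was at 0 in any library, and their summed level was 1120 to 1520 CPM in wildtype and 617 to 892 CPM in *Atf4* null lenses, where 4 of the 6 fell. The 9 lens fiber markers summed to 32000 to 60500 CPM in wildtype and 23600 to 56200 CPM in null libraries, with 2 falling and *Lim2* listed at 0 in every library. In whole lenses, fewer cells of a type and less RNA per cell cannot be told apart. The library of wildtype replicate 5 stood apart, since 2.488% of its counts lay on lists of skeletal muscle and mesenchyme markers, against 0.005464% to 0.06175% in the other 8 libraries. The fold change of each of the 10 subunits is therefore given with and without it, as are the levels, shares and ratios that it moved. Title and counts of each of the 5 wildtype samples carry the names of different wildtype libraries, which leaves their replicate numbers open to doubt but not their genotype.

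Among the 10 subunits, *Itga6* and *Itgb5* were lower in the *Atf4* null lens and no subunit was higher at the threshold of 0.05 on the adjusted p (quasi-likelihood test in edgeR, with Benjamini-Hochberg adjustment over the 14903 genes). Across all genes tested, 5.9% passed this threshold, 3.67% lower and 2.23% higher. With library size in place of TMM factors, 64.3% of the genes that passed were higher, against 37.8% with TMM, and *Itga6* and *Itgb5* were still the only subunits to pass. Before adjustment 4 of the 10, *Itga2* and *Itga3* besides these, had a p below 0.05, as did 19.6% of all genes tested. The *Itga6* mean was 0.523 and the *Itgb5* mean 0.594 of the wildtype level in the fitted model. The values of *Itga6*, *Itgb5* and *Itga2* did not overlap between the genotypes, a pattern that 10.2% of all genes tested showed. Fitted log2 fold changes were negative for 8 of the 10 subunits, with a median of -0.38 against 0.001 over all genes tested. Without wildtype replicate 5, *Itga2* and *Itga3* were lower and *Itgb4* higher as well, so that 4 of the 10 passed as lower and 1 as higher, against 8.33% of all genes in the same fit, 4.96% lower and 3.37% higher.

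**Figure D1:**
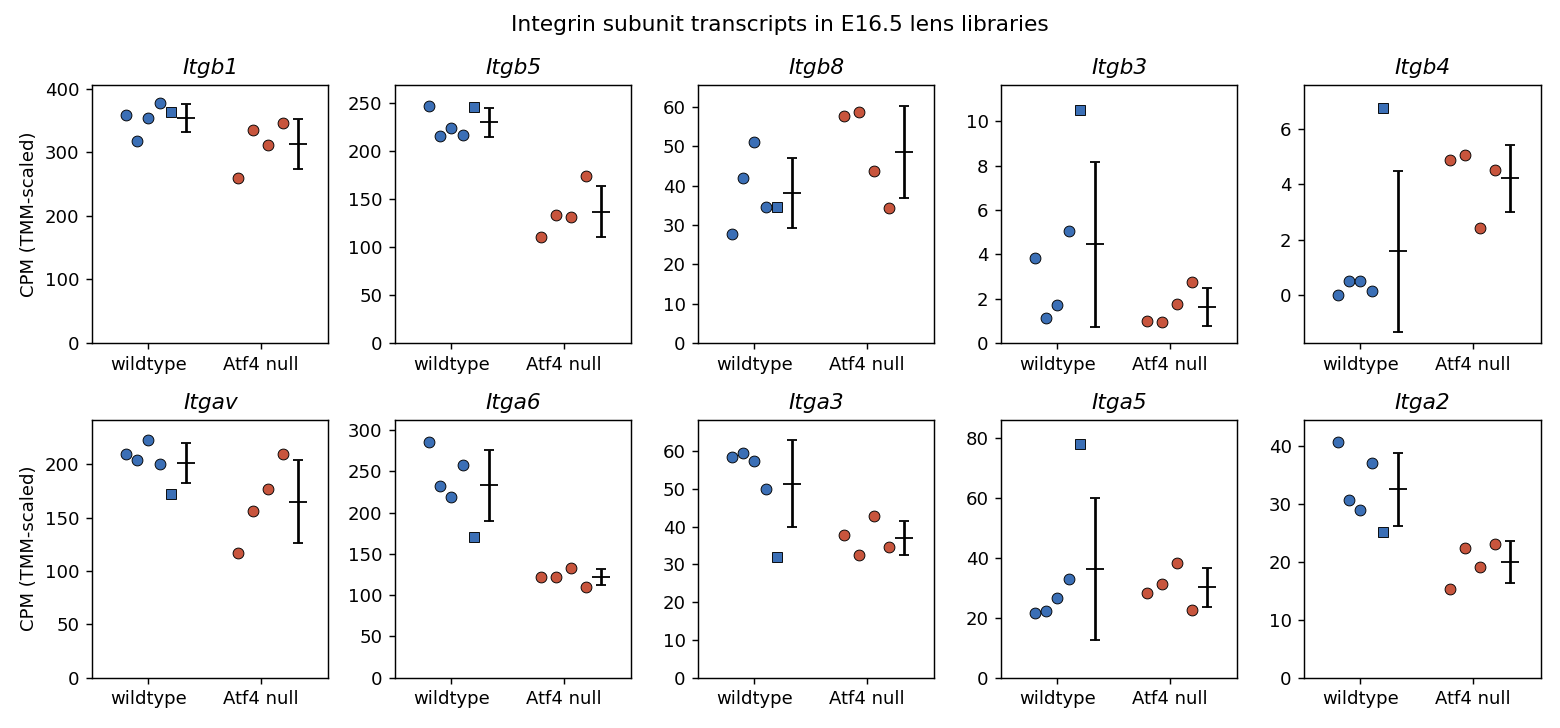
Level of each integrin subunit transcript in CPM, scaled by TMM factors, with 1 point per library (5 wildtype in blue, 4 *Atf4* null in red, and the square marking wildtype replicate 5). The bars beside the points are the mean and SD of each genotype, and the points of *Itga6*, *Itgb5* and *Itga2* do not overlap between genotypes.

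Of the 10 genes, 7 were matched by symbol to an entry in a RefSeq table of promoters built on GRCm38.p6, with 8 start sites in all. *Itga6*, *Itgb3* and *Itgb4* had no entry. Sequences are shown for *Itgb5* and *Itga2*, the members with an entry whose values did not overlap between the genotypes, so that the bases before the start of the gene can be read beside its values. Of the pair, only *Itgb5* passed the threshold. They are written 5′ to 3′ on the strand of the gene and located by exact match in GRCm39, with capitals marking the GC box GGGCGG or its reverse complement. The *Itgb5* stretch is chr16:33649785-33649987 on the plus strand and is the part of its window that lies before the annotated gene start, and the *Itga2* stretch is chr13:115068637-115068886 on the minus strand.
Itgb5: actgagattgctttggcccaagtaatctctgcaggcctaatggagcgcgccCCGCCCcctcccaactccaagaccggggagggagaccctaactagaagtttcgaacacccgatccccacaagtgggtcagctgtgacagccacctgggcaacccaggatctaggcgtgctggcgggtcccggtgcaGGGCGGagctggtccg
Itga2: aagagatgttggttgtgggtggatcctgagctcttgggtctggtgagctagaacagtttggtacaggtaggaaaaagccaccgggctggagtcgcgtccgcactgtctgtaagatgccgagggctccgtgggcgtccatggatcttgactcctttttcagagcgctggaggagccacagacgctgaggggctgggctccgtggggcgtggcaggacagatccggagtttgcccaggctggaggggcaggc

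Motifs were counted on both strands in the 250 bases before each start site of the promoter table, overlaps between motifs included. By the gene starts of GENCODE, only the *Itga2* window lies wholly before its gene. The windows of *Itgb5*, *Itga5* and *Itga3* (94967541 to 94967790) reach into the gene. Those of *Itgav*, *Itgb1*, *Itgb8* and *Itga3* (94960025 to 94960274) lie wholly inside it. The composite element TGATGNAA, to which ATF4 is known to bind with a C/EBP partner, was in 3.45% of 32851 such windows and in 0 of the 8 windows of the integrin genes. The cyclic AMP response element TGACGTCA was in 1.55% of all windows and in 0 of the 8. GGGCGG was in 32.7% of all windows and in 5 of the 8, *Itgb5* among them and *Itga2* not. CCAAT was in 33.8% of all windows and in 2 of the 8, and TATAAA in 12.4% and in 0 of the 8. The GC content was 65.2% in the *Itgb5* and 60.8% in the *Itga2* window, against a median of 52.4%. A motif missing from a window says only that these letters are not there.

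Levels were compared between genes per length, as FPKM, the TMM-scaled CPM divided by the summed exon length in kilobases. In wildtype lenses *Itgb1* led with 59.3 ± 3.75 FPKM (SD, n = 5), followed by *Itgb5* at 32.6 ± 2.16, *Itga6* at 20.5 ± 3.85 and *Itgav* at 16.4 ± 1.54 FPKM. Each of these 4 was above the next gene in every wildtype library, although the ranges of *Itga6* and *Itgav* overlapped. *Itga3* at 8.82 ± 1.98, *Itga5* at 6.8 ± 4.46, *Itga2* at 4.55 ± 0.883 and *Itgb8* at 3.38 ± 0.788 FPKM formed a middle group whose neighbours overlapped. *Itgb3* at 0.673 ± 0.565 and *Itgb4* at 0.218 ± 0.402 FPKM were the lowest in wildtype. In wildtype replicates 1 to 4 alone the order was the same, but the means of *Itgb4*, *Itgb3* and *Itga5* were 0.0386 ± 0.0352, 0.444 ± 0.278 and 4.84 ± 0.984 FPKM (SD, n = 4), a choice of libraries made after the values had been seen. In those 4 libraries the ranges of *Itga6* and *Itgav* did not overlap, nor did those of *Itga3*, at 9.66 ± 0.739 FPKM, and *Itga5*.

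In *Atf4* null lenses *Itgb1* again led with 52.4 ± 6.52 FPKM (SD, n = 4) and *Itgb5* followed with 19.4 ± 3.79 FPKM. *Itgav*, at 13.4 ± 3.16 FPKM, stood above *Itga6*, at 10.7 ± 0.849 FPKM, in 3 of 4 null libraries, while *Itga6* stood above *Itgav* in 5 of 5 wildtype libraries. *Itga3* followed at 6.35 ± 0.765, *Itga5* at 5.65 ± 1.22, *Itgb8* at 4.31 ± 1.04 and *Itga2* at 2.8 ± 0.497 FPKM. *Itgb4*, at 0.584 ± 0.169 FPKM, was above *Itgb3*, at 0.245 ± 0.128 FPKM, in every null library. With the length of the longest transcript in place of the summed exon length the order within each genotype was the same, but the wildtype level of *Itga6* was 33.6, of *Itgav* 27.3, of *Itgb5* 48.7, of *Itgb1* 68.8 and of *Itgb8* 4.44 FPKM, so the sums and shares of subunits given further on hold for the summed exon length only.

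*Itgb1* (ENSMUSG00000025809, chromosome 8, 129411876 to 129460618, plus strand, GRCm39) encodes β1, the shared partner of α2, α3, α5 and α6. It measured 358, 317, 354, 377 and 364 CPM in wildtype replicates 1 to 5 and 259, 335, 312 and 346 CPM in *Atf4* null replicates 1 to 4. The genotypes overlapped, with null replicate 1 the lowest library. Its log2 fold change was -0.18 (95% confidence interval -0.43 to 0.07, adjusted p = 0.447), so the interval spans both a modest fall and a small rise, and it was -0.16 (adjusted p = 0.487) without wildtype replicate 5.

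*Itgb5* (ENSMUSG00000022817, chromosome 16, 33649988 to 33771137, plus strand) encodes β5, which pairs with αv to form a vitronectin receptor. It measured 247, 216, 224, 217 and 246 CPM in wildtype and 110, 133, 131 and 174 CPM in *Atf4* null libraries. Every null library was below every wildtype library, with null replicate 4 the nearest. *Itgb5* fell by 0.75 on the log2 scale (SE 0.13, 95% confidence interval -1.04 to -0.47, adjusted p = 0.0046, edgeR's quasi-likelihood test). The exact two-sided permutation test over the libraries gave p = 0.0079, the smallest it can give with 4 and 5 libraries. The fit without wildtype replicate 5 gave -0.72 (adjusted p = 0.00327).

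*Itgb8* (ENSMUSG00000025321, chromosome 12, 119121748 to 119202584, minus strand) encodes β8, a partner of αv that binds latent TGFβ. It measured 27.7, 42.0, 51.1, 34.7 and 34.7 CPM in wildtype and 57.6, 58.7, 43.8 and 34.4 CPM in *Atf4* null libraries. Null replicates 1 and 2 lay above all wildtype libraries and null replicates 3 and 4 lay within their range. Null over wildtype, the log2 fold change was 0.35 (95% confidence interval -0.09 to 0.80, adjusted p = 0.388), or 0.32 (adjusted p = 0.42) without wildtype replicate 5. A list of 8 retina markers, 5 of which were higher in the null lenses, summed to 669, 469, 513 and 283 CPM in null replicates 1 to 4 and to between 149 and 253 CPM in wildtype, and its part in the *Itgb8* values was not tested.

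*Itgb3* and *Itgb4* had the lowest counts of the 10 subunits. A floor of 3 counts corresponds to between 0.299 and 0.437 CPM per library, and only *Itgb4* in wildtype replicates 1 to 4 was near it. *Itgb3* (ENSMUSG00000020689, chromosome 11, 104498826 to 104561302, plus strand), the αv partner best known from platelets, bone-resorbing cells and vessels, had 30, 9, 14, 40 and 98 counts in wildtype and 10, 8, 16 and 19 counts in *Atf4* null libraries. Wildtype replicate 5 held the most, at 10.5 CPM, 3.57 times the mean of the other wildtype libraries. The log2 fold change was -1.46 (95% confidence interval -2.96 to 0.04, adjusted p = 0.269) with all libraries and -0.85 (adjusted p = 0.555) without wildtype replicate 5.

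*Itgb4* (ENSMUSG00000020758, chromosome 11, 115865333 to 115899239, plus strand) encodes the long-tailed β subunit that links α6 to keratin filaments. It had 0, 4, 4, 1 and 63 counts in wildtype replicates 1 to 5 and 49, 42, 22 and 31 counts in *Atf4* null replicates 1 to 4. In CPM, wildtype replicates 1 to 4 lay between 0 and 0.494, wildtype replicate 5 at 6.75 and the null libraries between 2.41 and 5.04. The null libraries were thus above 4 of the wildtype libraries and below the fifth. With all libraries the log2 fold change was 1.39 (SE 1.03, 95% confidence interval -0.82 to 3.60, adjusted p = 0.519, exact permutation p = 0.063 with n = 4 and 5). Leaving out wildtype replicate 5 gave 3.84 (95% confidence interval 2.03 to 5.66, adjusted p = 0.00945), a fold change whose size is uncertain because the wildtype side then rests on 0, 4, 4 and 1 counts.

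The *Itgb4* counts were set beside those of surface epithelium, which uses this subunit, from a list of markers that was added after the *Itgb4* values had been seen. *Krt5*, *Krt14*, *Krt15* and *Trp63* summed to 0.128, 0.37, 1.11, 2.53 and 21.7 CPM in wildtype replicates 1 to 5 and to 3.99, 2.64, 1.75 and 4.66 CPM in *Atf4* null replicates 1 to 4. The highest sum was again in wildtype replicate 5, and 3 of the 4 null libraries lay above wildtype replicates 1 to 4. With the desmosomal genes *Perp* and *Pkp1* included, the sums were 11 to 31.2 CPM in wildtype and 11.4 to 24.5 CPM in null libraries and overlapped. *Krt15* had 1, 0, 8, 8 and 133 counts in wildtype and 36, 15, 6 and 14 counts in null libraries. *Krt5* had 0, 0, 1, 10 and 50 counts in wildtype and 4, 7, 4 and 3 counts in null libraries. Its count in wildtype replicate 4, a library with 1 count of *Itgb4*, exceeded every null library. *Krt14* had 0, 3, 0, 2 and 13 counts in wildtype and 0, 0, 3 and 15 counts in null libraries. *Trp63*, which defines these epithelia, had counts in null replicate 3 and wildtype replicate 5 and none in the other 7 libraries. The part of such cells in the *Itgb4* result was not tested. *Galk1* overlaps *Itgb4* on the opposite strand with a log2 fold change of -0.69 (adjusted p = 0.076). The strand setting of the counting is not given in the sources used here, and the part of *Galk1* reads in the *Itgb4* counts was not tested.

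**Figure D2:**
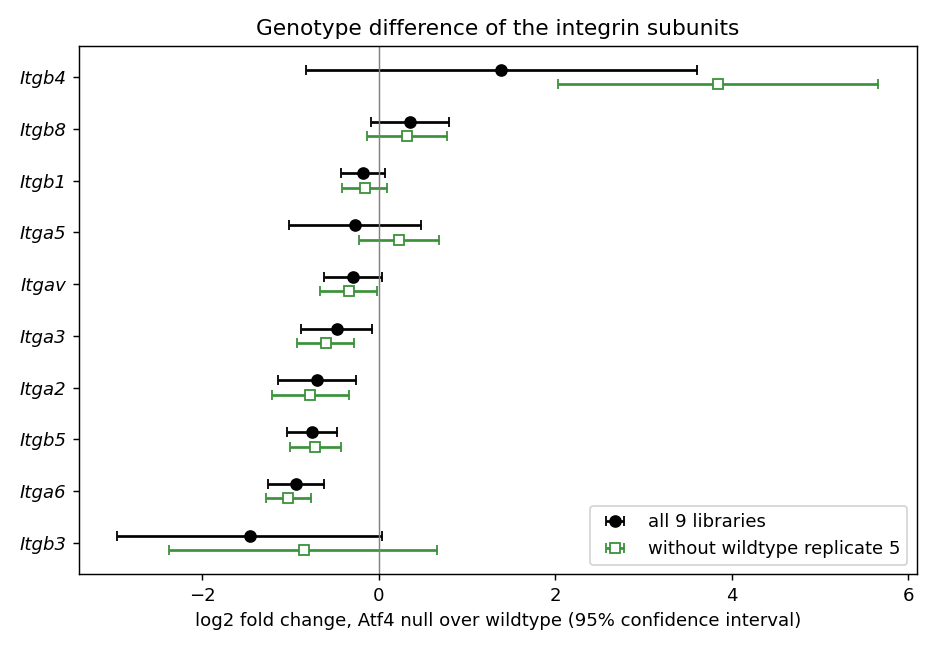
Fitted log2 fold change of each integrin subunit, *Atf4* null over wildtype, with its 95% confidence interval, from all 9 libraries (circles) and without wildtype replicate 5 (open squares). The intervals of *Itga6*, *Itgb5*, *Itga2* and *Itga3* lie below 0 in both fits, while *Itgb4* moves from 1.39 to 3.84 and *Itga5* from -0.27 to 0.23.

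*Itga6* (ENSMUSG00000027111, chromosome 2, 71575960 to 71689757, plus strand) encodes the laminin-binding α6 subunit. It measured 286, 232, 219, 257 and 170 CPM in wildtype and 122, 122, 133 and 110 CPM in *Atf4* null libraries. The null libraries lay close together and below every wildtype library, the nearest being wildtype replicate 5. *Itga6* fell by 0.94 on the log2 scale (SE 0.14, 95% confidence interval -1.25 to -0.62, adjusted p = 0.00192, edgeR's quasi-likelihood test), and the exact permutation test gave p = 0.016. Without wildtype replicate 5, whose level was 0.682 of the mean of the other wildtype libraries, the log2 fold change was -1.03 (adjusted p = 4.1e-05). Counts per gene do not separate the splice forms of α6, which differ in their cytoplasmic tails. The lens epithelial markers fell in the same libraries, as given above, and the part of fewer epithelial cells in the *Itga6* result was not tested.

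*Itga3* (ENSMUSG00000001507, chromosome 11, 94935296 to 94967682, minus strand) encodes α3, the other laminin-binding subunit among the 10. It measured 58.3, 59.4, 57.4, 49.9 and 31.9 CPM in wildtype and 37.7, 32.6, 42.9 and 34.7 CPM in *Atf4* null libraries. Wildtype replicates 1 to 4 were above all null libraries and wildtype replicate 5 was below them. The log2 fold change was -0.47 (SE 0.19, 95% confidence interval -0.88 to -0.07, adjusted p = 0.181) with all libraries. Without wildtype replicate 5 *Itga3* fell by 0.60 on the log2 scale (95% confidence interval -0.92 to -0.28, adjusted p = 0.0201).

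*Itga2* (ENSMUSG00000015533, chromosome 13, 114969617 to 115068636, minus strand) encodes the collagen-binding α2 subunit. It measured 40.7, 30.7, 28.9, 37.0 and 25.1 CPM in wildtype and 15.3, 22.3, 19.1 and 23.1 CPM in *Atf4* null libraries, without overlap. The log2 fold change was -0.70 (SE 0.20, 95% confidence interval -1.14 to -0.26) and the unadjusted p was 0.00408, while the adjusted p of 0.0618 missed the threshold in edgeR's quasi-likelihood test. The exact permutation test gave p = 0.016. It was -0.78 without wildtype replicate 5 (adjusted p = 0.0266), and DESeq2 gave an adjusted p of 0.0227 on all 9 libraries. *Mocs2*, which overlaps *Itga2* on the opposite strand, measured 74.5 ± 13.5 CPM in wildtype (SD, n = 5) and 62.9 ± 21.2 CPM in null libraries (SD, n = 4, adjusted p = 0.6).

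*Itgav* (ENSMUSG00000027087, chromosome 2, 83554403 to 83637260, plus strand) encodes αv. It measured 210, 204, 223, 200 and 172 CPM in wildtype and 117, 156, 177 and 210 CPM in *Atf4* null libraries. Null replicate 4 reached the wildtype level and null replicate 1 lay furthest below it. Its log2 fold change was -0.29 (95% confidence interval -0.62 to 0.04, adjusted p = 0.321), and it was -0.34 (adjusted p = 0.204) without wildtype replicate 5.

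*Itga5* (ENSMUSG00000000555, chromosome 15, 103252713 to 103275270, minus strand) encodes the fibronectin-binding α5 subunit. It measured 21.4, 22.1, 26.7, 32.8 and 77.9 CPM in wildtype and 28.1, 31.2, 38.3 and 22.7 CPM in *Atf4* null libraries. Wildtype replicate 5 was 3.02 times the mean of the other wildtype libraries, and null replicate 3 was the only null library above those 4. The log2 fold change was -0.27 (95% confidence interval -1.02 to 0.48, adjusted p = 0.751) and turned to 0.23 (95% confidence interval -0.22 to 0.68, adjusted p = 0.606) without that library. The 8 mesenchyme markers summed to 14200 CPM in wildtype replicate 5, to between 40.8 and 92.3 CPM in the other wildtype and to between 208 and 542 CPM in the null libraries, and their part in the *Itga5* values was not tested.

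The mixture of subunits was then described for each library. The 5 α subunits summed to between 52.5 and 62 FPKM in wildtype and between 34.1 and 43.3 FPKM in *Atf4* null libraries, and the 5 β subunits to between 87.7 and 101 and between 64.8 and 86.7 FPKM, without overlap in either class. Of the β sum, *Itgb5* made up 33.9% ± 1.67 in wildtype (SD, n = 5) and 25.1% ± 2.28 in null lenses (SD, n = 4). The share of *Itgb1* was 61.7% ± 1.77 in wildtype and 68.1% ± 1.43 in null lenses, and neither share overlapped between the genotypes. Of the α sum, *Itga6* made up 35.7% ± 4.7 in wildtype and 27.7% ± 3.04 in null lenses, and *Itgav* 28.7% ± 2.25 and 34.2% ± 6.06. The α shares overlapped between the genotypes. In wildtype replicates 1 to 4 alone the *Itga6* share ran from 34.1% to 40.7% and lay above the null range of 24% to 31.4%. The *Itga5* share, 12.3% ± 8.87 in all wildtype (SD, n = 5) and 14.5% ± 2.66 in null libraries (SD, n = 4), ran from 6.51% to 10.5% in those 4 and lay below the null range of 10.6% to 16.6%. The *Itgb4* share of the β sum was at most 0.078% in those 4 libraries and 0.444% to 1.04% in null libraries.

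**Figure D3:**
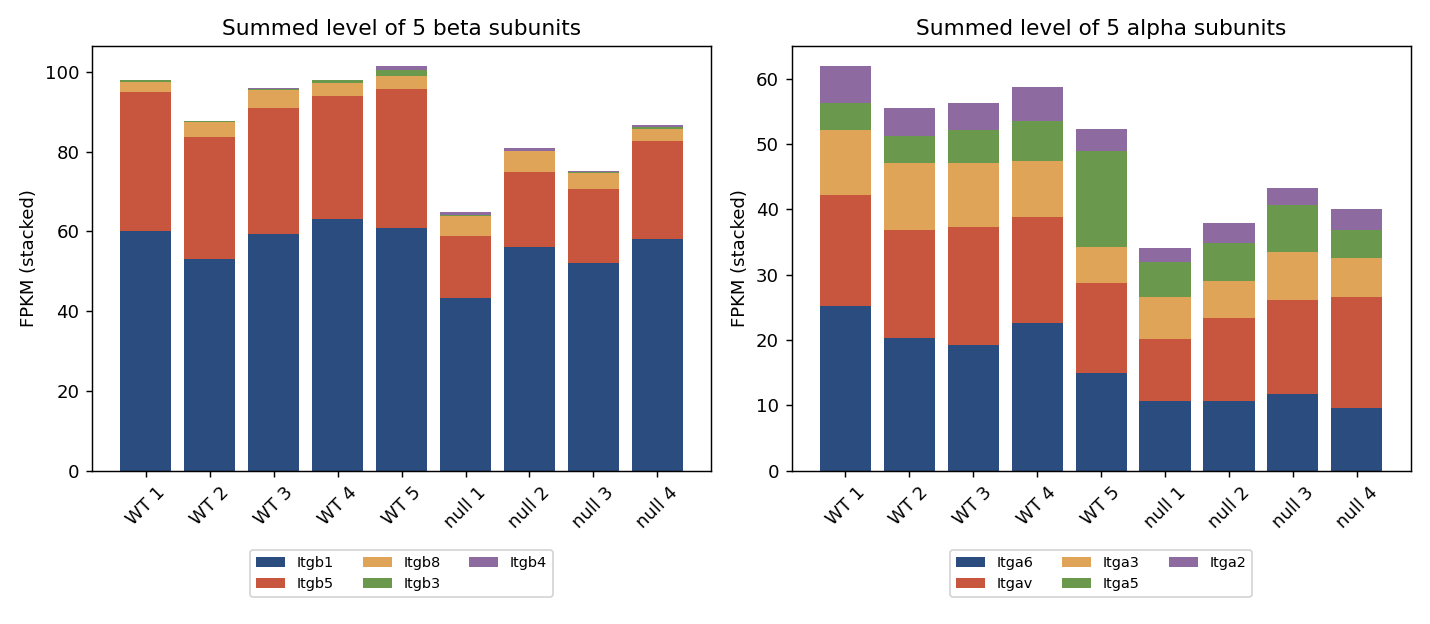
FPKM of the 5 β subunits (left) and the 5 α subunits (right), stacked for each of the 5 wildtype (WT) and 4 *Atf4* null (null) libraries. The *Itgb5* segment is shorter in all 4 null libraries, the *Itga6* segment is shorter in all 4, and the enlarged *Itga5* segment is in wildtype replicate 5.

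Partner subunits were then compared as the log2 ratio of their FPKM within a library, as a description without a test. The ratio of *Itgav* to *Itgb5* was -1.04, -0.89, -0.81, -0.92 and -1.32 in wildtype and -0.72, -0.57, -0.37 and -0.53 in *Atf4* null libraries, so αv transcripts were closer to β5 transcripts in every null lens. The ratio of *Itga2* to *Itgb1* was between -4.12 and -3.39 in wildtype and between -4.33 and -4.16 in null libraries, also without overlap. That of *Itga6* to *Itgb1* averaged -1.56 ± 0.30 in wildtype (SD, n = 5) and -2.29 ± 0.25 in null lenses (SD, n = 4), with wildtype replicate 5 at -2.03 and null replicate 1 at -2.02 as the libraries that met. The ratio of *Itgav* to *Itgb8* averaged 2.30 ± 0.31 in wildtype and 1.63 ± 0.70 in null lenses and overlapped. Its difference of -0.67 was -0.42 without null replicate 1 and -0.95 without null replicate 4. The ratios of *Itga3*, *Itga5* and *Itgav* to *Itgb1* and of *Itgav* to *Itgb3* overlapped between the genotypes. Leaving out wildtype replicate 5 ended the overlap of *Itga6* to *Itgb1*, with wildtype at -1.62 to -1.25. It moved the difference, null minus wildtype, from 0.85 to 0.38 for *Itgav* to *Itgb3*, from 0.08 to 0.39 for *Itga5* to *Itgb1* and from -0.26 to -0.44 for *Itga3* to *Itgb1*.

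For the subunits that fell, the genes with the most similar values over the 9 libraries were sought by the root mean square difference of centred log2 CPM, wildtype replicate 5 included. For *Itga6* these were *Aars1*, the alanyl-tRNA synthetase, at 0.106, *Lsm4*, of the Sm-like RNA-binding complex, at 0.114, and *Swi5*, a recombination repair factor, at 0.117, against a median of 0.66 over all genes. For *Itgb5* they were *Septin8*, a cytoskeletal GTPase, at 0.119, *Lamb1*, the laminin β1 chain, at 0.130, and *Dtd1*, which removes D-amino acids from tRNA, at 0.143, against a median of 0.60. As the smallest distances were picked, they lie below the median by choice. The measure includes the difference between genotypes. Log2 fold changes of these genes were -0.96, -0.84 and -0.95 for *Itga6* and -0.69, -0.67 and -0.66 for *Itgb5*, in the order named.

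A further 17 integrin subunit genes were examined, of which 10 passed the filter on low counts. None passed the threshold in edgeR's quasi-likelihood test, against 5.9% of all genes tested, and 1 had an unadjusted p below 0.05, against 19.6%. Their median log2 fold change was -0.66 with all libraries and -0.07 without wildtype replicate 5, where 8 were tested. The gene with the low unadjusted p was *Itga1*, a collagen-binding partner of β1, which is known from endothelium, smooth muscle and mesenchyme. It measured 39.9, 32.2, 64.5, 54.7 and 71.4 CPM in wildtype and 31.4, 24.4, 35.4 and 11.4 CPM in *Atf4* null libraries, with a log2 fold change of -1.03 (SE 0.31, adjusted p = 0.0711), or -0.89 (adjusted p = 0.071) without wildtype replicate 5. DESeq2 and edgeR's exactTest each called it and no other. The 8 endothelial markers summed to between 311 and 576 CPM in wildtype and between 166 and 371 CPM in null libraries, and their part in the *Itga1* values was not tested. Log2 fold changes of the other 9 were -2.24 for *Itga8*, -2.03 for *Itga7*, -0.84 for *Itgal*, -0.70 for *Itga11*, -0.61 for *Itga4*, -0.56 for *Itga9*, 0.05 for *Itga2b*, 0.70 for *Itga10* and 1.16 for *Itgb2*, with adjusted p from 0.297 to 0.982. Without wildtype replicate 5 they were -0.50 for *Itga7*, 0.16 for *Itga11*, -0.43 for *Itga4*, -0.30 for *Itga9*, 0.15 for *Itga2b*, 0.65 for *Itga10* and 1.84 for *Itgb2*, while *Itga8* and *Itgal* no longer passed the filter on low counts. *Itga7*, the laminin receptor of muscle, reached 18.7 CPM and *Itga8* 12.2 CPM in wildtype replicate 5, against at most 4.82 and 3.92 CPM elsewhere.

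Laminin chains, nephronectin and other ligands of integrins were lower in the *Atf4* null lens. Of 35 ligands listed, 32 were tested and 8 were lower and 0 higher, against 5.9% of all genes tested in either direction, with a median log2 fold change of -0.57. The laminin chains *Lama1*, *Lamb1* and *Lamc1*, which together form the laminin of the embryonic lens capsule, all fell. *Lama1* went from 430 ± 117 to 181 ± 28.1 CPM (log2 fold change -1.25, adjusted p = 0.00248), *Lamb1* from 504 ± 27.9 to 317 ± 49.5 CPM (-0.67, adjusted p = 0.0065) and *Lamc1* from 555 ± 16.2 to 355 ± 52.7 CPM (-0.64, adjusted p = 0.00585), each as mean ± SD with n = 5 wildtype and n = 4 null libraries in edgeR's quasi-likelihood test. The ranges of the genotypes did not overlap for any of these chains.

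*Lama3*, a laminin chain of epithelial basement membranes bound by α3 and α6, fell from 26 ± 7.2 to 3.88 ± 0.4 CPM (log2 fold change -2.74, adjusted p = 5.99e-05). *Npnt*, or nephronectin, a ligand best known for binding α8β1, measured 97.8, 106, 121, 95.2 and 92 CPM in wildtype and 26.7, 39.7, 33.4 and 23.9 CPM in null libraries, a fall of 1.73 on the log2 scale (adjusted p = 5.66e-05). Its partner *Itga8* had at most 31 counts in each library except wildtype replicate 5. *Adam9*, a membrane metalloprotease whose disintegrin domain binds integrins, fell by 0.79 (adjusted p = 0.00634). *Nid1* and *Hspg2*, which encode the capsule proteins nidogen and perlecan, completed the 8, but neither passed without null replicate 2 or 3, or without wildtype replicate 1, 2, 3 or 4. Without wildtype replicate 5, 14 ligands passed, of which 10 were lower and 4 higher, against 8.33% of all genes in that fit, 4.96% lower and 3.37% higher, and the median log2 fold change was 0.19. The 4 were *Col1a1*, *Col1a2*, *Postn* and *Ccn1*. The first 3 of these are themselves among the 8 mesenchyme markers, whose sum was 208 to 542 CPM in null libraries and 40.8 to 92.3 CPM in wildtype replicates 1 to 4, and the part of mesenchyme in these rises was not tested.

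Among the genes for proteins that act on integrins inside the cell, 3 passed the threshold. Of 15 activators and inhibitors, 14 were tested and 1 was lower, against 3.67% of all genes tested in that direction. It was *Fermt2*, or kindlin-2, which binds β tails and activates the receptor, at 110 ± 2.68 CPM in wildtype (SD, n = 5) and 81.3 ± 2.67 CPM in null lenses (SD, n = 4), a log2 fold change of -0.43 (adjusted p = 0.018, edgeR's quasi-likelihood test). Of 30 adaptors and kinases of adhesion complexes, 28 were tested and 1 was lower and 1 higher, or 7.14% against 5.9% of all genes tested. *Pxn*, which encodes the scaffold paxillin, fell from 91.4 ± 14.1 to 59.2 ± 6.36 CPM (log2 fold change -0.63, adjusted p = 0.017), and *Crkl*, an adaptor that binds phosphorylated paxillin, rose from 69.4 ± 6.42 to 105 ± 18.6 CPM (0.59, adjusted p = 0.0199). The other 26 did not pass, and the median log2 fold change was -0.07. Of these, *Vcl*, which encodes the talin-binding protein vinculin, had a log2 fold change of 0.52, and it rose by 0.68 without wildtype replicate 5 (adjusted p = 0.0028) and also passed with DESeq2 and without the filter on low counts. *Fermt2* and *Pxn* did not pass with library size in place of TMM factors, which moved the median of all genes from 0.001 to 0.125 on the log2 scale, and *Fermt2* did not pass without the filter on low counts. Leaving out null replicate 3 ended the calls of *Fermt2* and *Crkl*, and *Crkl* was also lost without wildtype replicate 1 or wildtype replicate 3.

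Of 11 hemidesmosome and tetraspanin partners, 10 were tested and *Dst* alone passed, against 3.67% of all genes tested that were lower, with a median log2 fold change of -0.36. *Dst* encodes dystonin, whose epithelial form joins β4 to keratin filaments, and measured 2300, 1960, 1870, 1850 and 1370 CPM in wildtype and 986, 1150, 1130 and 1230 CPM in *Atf4* null libraries. It fell by 0.73 on the log2 scale (adjusted p = 0.00837), and counts per gene do not separate its epithelial, neuronal and muscle forms. *Slc3a2*, the heavy chain of an amino acid transporter that also binds β tails, measured 262 ± 54.7 CPM in wildtype (SD, n = 5) and 171 ± 29.6 CPM in null lenses (SD, n = 4), with an adjusted p of 0.0545 for a log2 fold change of -0.61. It passed as lower without wildtype replicate 5 (adjusted p = 0.00288), and with DESeq2, exactTest, library size alone, the robust fit and either change of the filter. *Col17a1*, the hemidesmosomal collagen, did not pass the filter on low counts and was not tested. It had between 0 and 5 counts in wildtype and between 6 and 11 counts in null libraries. In CPM the ranges overlapped, at 0 to 0.633 and 0.598 to 1.21. *Plec*, of the same list, measured 2360 ± 388 CPM in wildtype and 2530 ± 832 CPM in null lenses (log2 fold change 0.10, adjusted p = 0.845, edgeR's quasi-likelihood test).

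**Figure D4:**
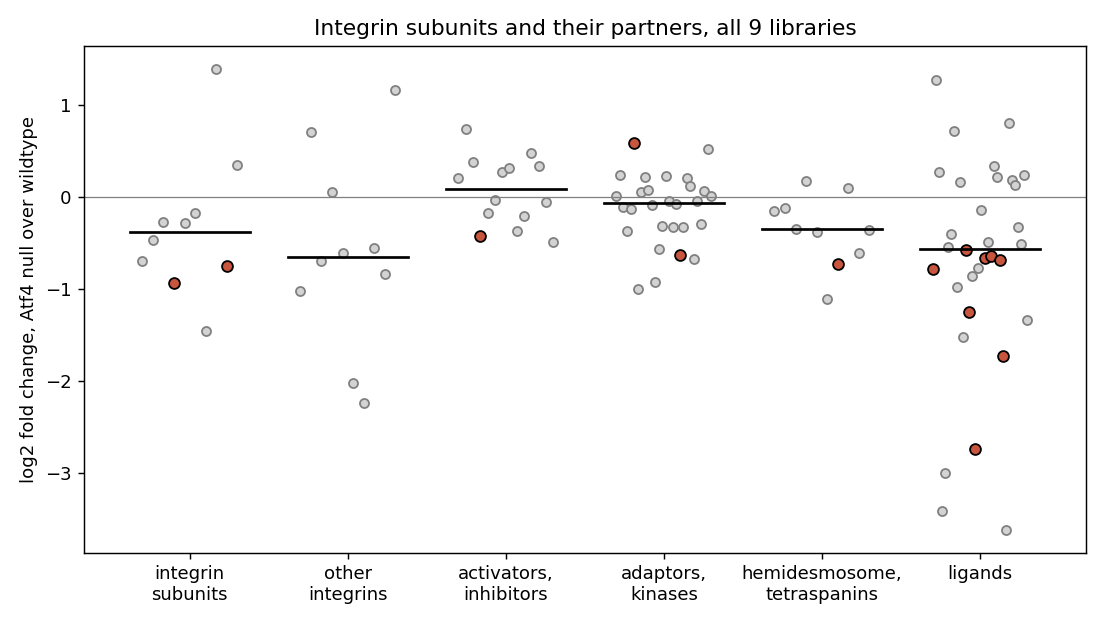
Log2 fold change, *Atf4* null over wildtype, of the tested genes in each list, from all 9 libraries, with 1 point per gene (red where the adjusted p is below 0.05) and a line at the median of the list. The 10 integrin subunits have a median of -0.38 and the 32 tested ligands of -0.57, with 8 ligands passing, all below 0. Without wildtype replicate 5, which is not drawn, the ligand median was 0.19, with 10 ligands passing as lower and 4 as higher.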

How the data were processed

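Single pairs of E16.5 lenses gave 1 library per embryo, so replicates are separate embryos (4 *Atf4* null, 5 wildtype). Per the methods, the authors trimmed reads with Trim Galore, removed reads that HISAT2 aligned to ribosomal RNA and aligned the rest to GRCm39 (aligner not given in the sources used here), and the deposited tables hold raw HTSeq counts, whole numbers without normalization. Summary entries that name no gene held 44.56% to 47.725% of reads and were left out. Symbols, positions and exon lengths came from GENCODE vM39.

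Genes were filtered by filterByExpr, scaled by TMM and tested by genotype with edgeR 4.0.16 (quasi-likelihood test, no covariate, R 4.3.3), with Benjamini-Hochberg adjustment over 14903 genes and a threshold of 0.05. Between the counts of any pair of libraries (36 pairs), chi-square was at least 7.93 per degree of freedom, so none was a repeat. Exact permutation tests were two-sided on mean log2 CPM with a prior count of 2. The procedure was tested on simulated data. DESeq2 1.42.0, exactTest, other scalings and filters, a robust fit, a replicate block and leaving out each library were alternatives. Named were all 10 members, up to 6 called genes per list, other integrin subunits past the filter, and the 3 genes most like each called member. *Krt5*, *Krt14*, *Krt15*, *Trp63*, *Perp*, *Pkp1*, *Col17a1*, *Plec*, *Slc3a2*, *Vcl*, *Nid1* and *Hspg2* were named after their values were seen. So were the laminin chains that did not pass and the ligands that passed only without wildtype replicate 5. The members, lists and rules were chosen with earlier results of these data known.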

Additional observations from a re-analysis of the deposited data

Results flagged for a closer look

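Of 20 groups of values, 1 for each of the 10 subunits in each genotype, 2 held a library that lay far from the rest of its group by Dixon's criterion, and chance gives such a finding in about 1 of 20 groups. The *Itga5* level was 77.9 CPM in wildtype replicate 5, while the nearest wildtype library was at 32.8 and the lowest at 21.4 CPM. The *Itgb4* level was 6.75 CPM in wildtype replicate 5, while the nearest wildtype library was at 0.494 CPM and the lowest at 0. Both were in the library whose counts on muscle and mesenchyme markers exceeded those of the other 8.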

How the results depend on the processing

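*Itga6* and *Itgb5* passed the threshold in 17 of 17 alternatives, with log2 fold changes of -1.03 to -0.80 and -0.89 to -0.65. *Itga2* passed in 3 of 17, with DESeq2, with at least 10 counts in every library and without wildtype replicate 5. *Itga5* turned to 0.23 without wildtype replicate 5 and to 0.22 with the replicate number as a block, and was as low as -0.41 when another library was left out. Genes called ran from 527 to 1207 when a library was left out and reached 1397 with DESeq2, against 880. Integrin subunits called ran from 2 to 5, activators from 0 to 3, adaptors from 1 to 3, hemidesmosome partners from 1 to 2, ligands from 6 to 14 and other integrins from 0 to 0 when a library was left out. Other integrins called were 1 with DESeq2, exactTest or no filter. Activators called were 3 with DESeq2 or at least 10 counts, 2 with the robust fit and 0 with the replicate block, against 1. Adaptors called were 4 with DESeq2 or no filter and 1 with library size alone, against 2. Hemidesmosome partners called were 2 with DESeq2, exactTest, library size alone, no filter, at least 10 counts, the robust fit or the replicate block, against 1. Under the replicate block 14 ligands were called, against 8, and 852 genes in all, *Itgb4* passed at 3.96, and *Fermt2* and *Pxn* were lost. Wildtype replicate 5 has no null library of its number, so the block both takes it out of the comparison and adds a term for each number, and its changes are not those of either step alone. The cause of the other changes was not tested. Same-numbered samples did not deviate together (r from -0.13 to 0.01), and 0 of the 4 null samples correlated best with its own number. The wildtype numbers are open to doubt, as given above, so this check cannot decide whether samples were paired in another way. With library size alone, 64.3% of called genes were higher, against 37.8%. A minimum of 10 counts in every library left *Itgb3* and *Itgb4* without a value; their low counts limit both.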
